A study of Mus musculus with 24 samples.

Results

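MMTV-PyMT mammary tumors were compared with cultured E0771 breast cancer cells by RNA sequencing, through the stromal, immune and lineage genes that separate a whole tumor from a cell line. The samples were chosen by their labels as the control arms of both models, which gave 6 of the 24 samples of the series. 3 samples were tumors and 3 were cultures. The tumors were primary mammary tumors of female MMTV-PyMT mice of strain FVB/N, in which the mouse mammary tumor virus promoter drives the polyoma middle T antigen in mammary epithelium. These mice received the control IgG antibody C44 at 15 mg/kg, given repeatedly each week between 8 and 12 wk of age. The cultures were E0771 cells, a line from a spontaneous mammary tumor of a C57BL/6 mouse, grown in DMEM with serum, carrying the pLKO.1-puro control vector against EGFP and selected with puromycin (shCtrl). The study was designed to compare pleiotrophin inhibition with its control inside each model, so tumor and culture also differed in strain, oncogene, antibody, vector and experiment, and these could not be told apart from tissue against culture.

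A tumor that arises in the mammary gland holds transformed epithelium together with fibroblasts, vessels, nerves, fat and leukocytes, and its bulk RNA mixes all of them. A culture of a cell line holds the transformed cells alone. Mammary epithelium is built from luminal cells, which carry keratins 8 and 18 and make milk proteins, and basal cells, which carry keratins 5 and 14, whereas cells that have left the epithelial state carry vimentin and factors of the ZEB, SNAIL and TWIST families.

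The values were log2 CPM (reads scaled to library size) with an offset of 0.5 reads, for 12091 genes. The C44 tumors had 19.18, 19.25 and 18.76 M reads in replicates 1, 2 and 3, and the cultures had 17.25, 20.42 and 16.61 M, so depth did not separate the groups. A gene with no read stands at a value between -5.35 and -5.05 in these 6 samples, depending on depth. The tumors resembled each other less than the cultures did. Pearson's r of log2 values across genes, which are not independent replicates, lay between 0.954 and 0.973 for pairs of tumors and between 0.987 and 0.990 for pairs of cultures.

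With limma over all genes, 4241 genes (35.1%) were higher in tumors than in cultures and 4572 (37.8%) were lower at an adjusted p under 0.05. Tested against a 2-fold difference with limma's treat at the same threshold, 2393 genes (19.8%) were called higher and 1722 (14.2%) lower, and the median difference of all genes was -0.07. All differences below are tumor minus culture on the log2 scale, and a gene called higher or lower passed this 2-fold test. The p-values set each difference against the spread between the samples within these groups. The cultures were all of the same line and vector, so that spread holds no variation between cell lines. For every gene list below, the counts called in this comparison stand beside 19.8% of all genes higher and 14.2% lower. No difference from these shares was tested. Another scaling moved the median of all genes by 0.16 (median of ratios), -0.13 (quantile) or 0.12 (cyclic loess). Of the 2-fold calls, 58.2% were higher in tumors, and 44.2% were under quantile normalization.

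**Figure D1:**
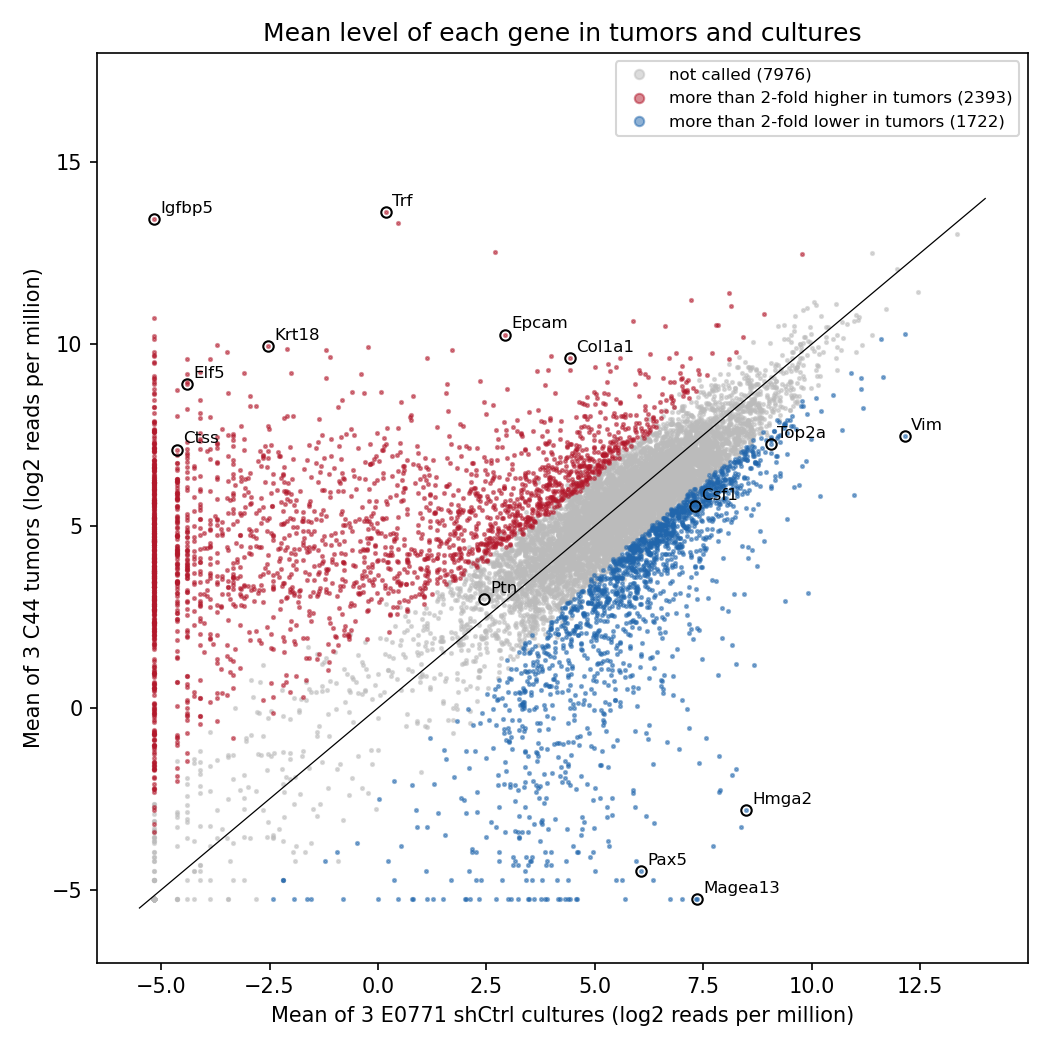
Mean log2 CPM of each of 12091 genes in 3 C44 tumors (vertical) against 3 E0771 shCtrl cultures (horizontal), with the line of equal values. Red points are the 2393 genes called more than 2-fold higher in tumors and blue points the 1722 called lower, and the column of points at the left edge holds genes with no read in the cultures.

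Markers were read in each sample to check the labels. Xist, the RNA of the inactive X chromosome, had 11254, 17548 and 15939 reads in the tumors and 0, 2 and 1 in the cultures. The counts gave a ratio of 14154 with an exact 95% counting interval of 4843 to 68639, which covers counting error only, as do all such intervals and floors below. The tumors had RNA of an inactive X, as tissue of female mice has, and the cultures had next to none. Ptprc, the pan-leukocyte phosphatase CD45, stood at 3.97, 4.54 and 4.11 in the tumors and had 2 reads in all cultures together. Epcam, an epithelial adhesion protein, stood at 10.56, 10.03 and 10.19 in the tumors and at 3.09, 2.66 and 3.01 in the cultures. Vim, the mesenchymal filament vimentin, stood at 7.54, 7.98 and 6.88 in the tumors and at 12.06, 12.25 and 12.15 in the cultures. Ptprc and Epcam were thus higher in every tumor than in any culture, and Vim was higher in every culture than in any tumor. Esr1 and the defining markers Cd79a, Ncr1, Adipoq and Wap were not in the table and were not analysed here. In bulk RNA, fewer cells of a type and less RNA per cell cannot be told apart, here and in all results below.

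**Figure D2:**
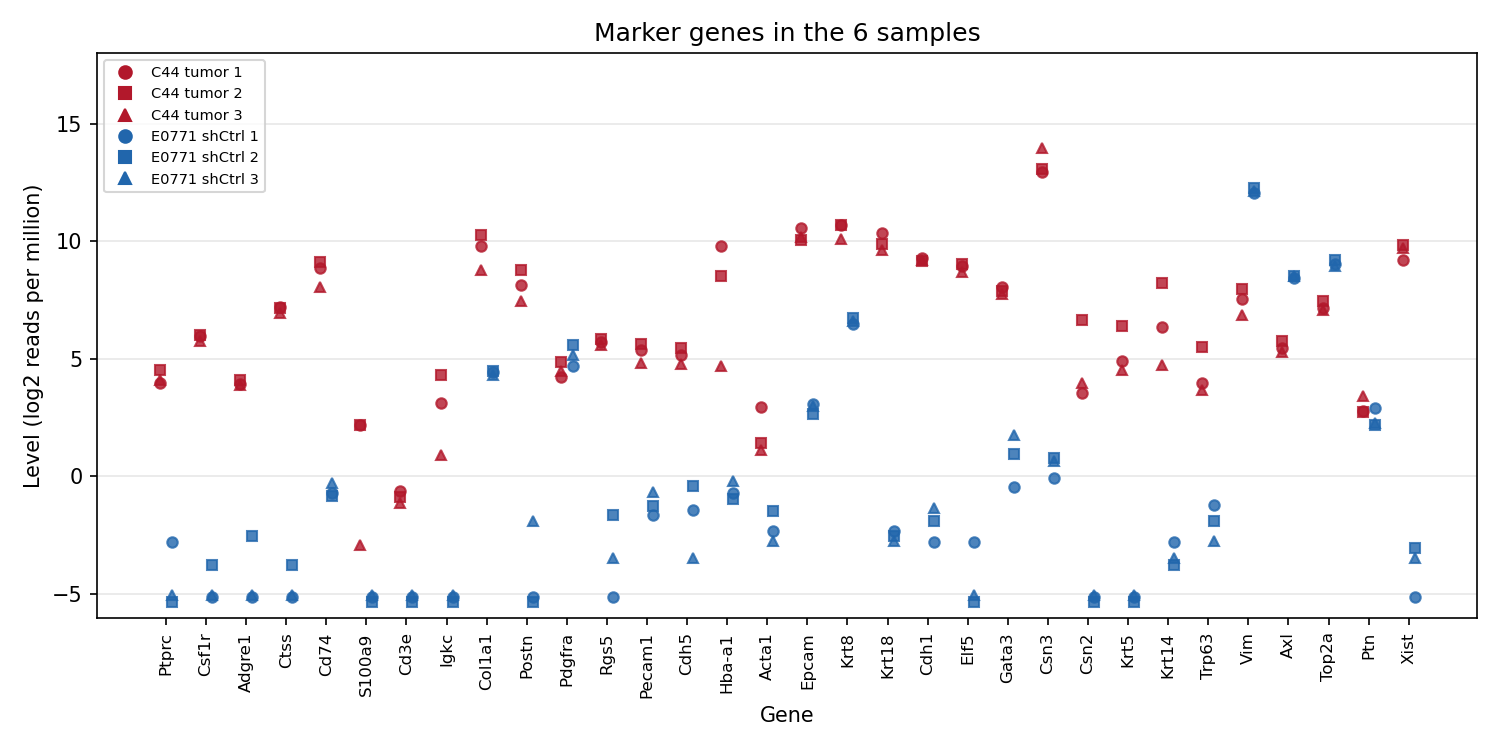
Level in log2 CPM of 32 marker genes in each C44 tumor (red) and each E0771 shCtrl culture (blue), with a symbol per replicate. Points near -5 have no read, and the groups overlap only for Pdgfra and Ptn among the genes drawn.

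The epithelial list held 34 genes of keratins, junctions and epithelial splicing or transcription factors. All 34 were in the table and all 34 were called higher in tumors (33 under quantile normalization), against 19.8% of all genes. The gene filter behind the table is not stated, and a member of any list that entered the table only through the group where it is high had to differ, so the counts of list members here and below are descriptions. Their median difference was 9.91, or 8.85 with genes at 0 reads in the cultures counted at a floor of 3 reads per library. Together these genes had 11731, 10621 and 9754 CPM in the tumors and 129, 157 and 143 in the cultures, a 74.8-fold difference of means. In the cultures 68.9% of this sum came from Krt8 alone, which encodes keratin 8.

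Krt8 stood at 10.70, 10.69 and 10.08 in the tumors and at 6.50, 6.74 and 6.62 in the cultures. Its partner Krt18 stood at 10.34, 9.89 and 9.62 in the tumors and at -2.30, -2.54 and -2.73 in the cultures. Both keratin genes were higher in every tumor than in any culture, and the difference was 3.87 (SE 0.18) for Krt8 and 12.48 (SE 0.23) for Krt18. Cdh1, the adhesion protein E-cadherin, stood at 9.27, 9.16 and 9.18 in the tumors and had 13 reads in all cultures. Its difference was 11.21 (SE 0.34, adjusted p of treat 2.9e-07), and all tumors lay above all cultures. Epcam differed by 7.34 (SE 0.17, adjusted p of treat 1.8e-07). Spint2, a membrane protease inhibitor, differed by 13.26 on 6 culture reads. Ehf, an ETS factor of epithelium, had no read in the cultures and was at least 5060-fold higher in tumors. 9 of the 34 genes had no read in any shCtrl culture, among them the tight junction genes Cldn3 and Cldn4 and the keratin gene Krt19, which were singled out after their values were seen.

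Promoters of epithelial genes were searched for the E-box CACCTG on both strands, the letters that ZEB and SNAIL factors are known to bind, because genes of these factors lay on the opposite side of the comparison. The RefSeq promoters (GRCm38.p6, 250 bases before to 50 after a start) covered 21 of the list genes with 27 promoters. 23 of these promoters (85.2%) held the letters, and 6640 of all 32851 promoters (20.2%) did. The match is a description of the letters and not a measured site. Windows of the same gene can overlap and share a match, as for Crb3, Marveld2 and Ocln, here and in the searches below. All members of the list were called higher, so it held no epithelial genes without a difference to set beside them. The promoter of Epcam (chr17:87635729-87636028, + strand) is shown, as it held 2 matches, in capitals.
Epcam: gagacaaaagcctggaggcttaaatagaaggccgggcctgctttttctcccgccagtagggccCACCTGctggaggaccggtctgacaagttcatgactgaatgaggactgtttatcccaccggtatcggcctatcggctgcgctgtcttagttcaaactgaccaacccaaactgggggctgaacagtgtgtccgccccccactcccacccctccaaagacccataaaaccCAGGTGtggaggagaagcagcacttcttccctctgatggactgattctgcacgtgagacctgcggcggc

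The luminal regulator and receptor list had 14 of 20 genes in the table, of which 11 were called higher and 1 lower, with a median difference of 3.72. Its sum was 3526, 3693 and 3785 CPM in the tumors and 294, 361 and 344 in the cultures. Elf5, a factor of luminal progenitors and of milk secretion, stood at 8.96, 9.02 and 8.70 in the tumors and had 2 reads in the cultures, a ratio of 12957 with a counting interval of 3586 to 106992. Gata3, the factor that maintains luminal cells, stood at 8.06, 7.90 and 7.77 in the tumors and at -0.46, 0.95 and 1.77 in the cultures. Both luminal factors were thus high in all tumors with little spread. Xbp1, a factor of secretory cells, differed by 4.76, and Sox9, a progenitor factor, by 2.67. The member called lower was Areg, singled out after its values were seen, which encodes the ERBB ligand amphiregulin. Areg stood at 0.97, -1.18 and -0.19 in the tumors and at 4.46, 5.72 and 5.35 in the cultures.

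The milk list had 15 of 18 genes in the table, and all 15 were called higher, or 14 under quantile and cyclic loess normalization. Their median difference was 8.83, or 8.0 with the floor. The sum was 39174, 40919 and 41262 CPM in the tumors and 1046, 1644 and 1344 in the cultures. Csn3, the casein kappa gene, stood at 12.96, 13.09 and 13.95 in the tumors and at -0.06, 0.80 and 0.67 in the cultures. Lcn2, an iron carrier, differed by 9.83, and Ltf, which encodes lactoferrin, was at least 7959-fold higher in tumors. Csn2, the casein beta gene, stood at 3.56, 6.66 and 3.96 in the tumors and had no read in the cultures, at least 256-fold higher, or at least 81.5-fold without tumor replicate 2. Single milk genes differed between tumors in opposite directions under a nearly equal sum, as Csn2 was highest in tumor replicate 2, Csn3 was highest in replicate 3, and Lalba was lowest in replicate 3, at 10.35, 10.19 and 7.95. Spp1, which encodes osteopontin, gave 67.4% of the sum in the cultures, and its difference was 2.71. Trf, the transferrin gene, gave 31.3% of the sum in the tumors, but shared 63.5% of its exon length with another annotated gene, so its value is uncertain.

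The letters TTCNNNGAA, which STAT5 is known to bind in milk genes, were searched on both strands in the promoters of the milk list. 3 of 11 promoters of 10 genes (27.3%) held them, against 2726 of all 32851 (8.30%). The promoter of Csn2 (chr5:87699376-87699675, - strand) is shown as one of the 3, with the match in capitals.
Csn2: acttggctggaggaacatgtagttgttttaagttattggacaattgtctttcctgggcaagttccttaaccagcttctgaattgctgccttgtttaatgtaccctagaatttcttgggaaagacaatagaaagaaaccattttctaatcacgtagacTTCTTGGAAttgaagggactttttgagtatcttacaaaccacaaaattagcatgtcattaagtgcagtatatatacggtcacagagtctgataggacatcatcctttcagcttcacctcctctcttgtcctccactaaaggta

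Of the basal and myoepithelial list, 11 of 15 genes were in the table and 9 were called higher, with none lower and a median difference of 6.29. Krt5 stood at 4.89, 6.39 and 4.51 in the tumors and had no read in the cultures, at least 271-fold higher, or at least 157-fold without tumor replicate 2. Krt14 stood at 6.34, 8.24 and 4.75 in the tumors and had 4 reads in all cultures, and its call was lost with voom weights, at 9.79. Trp63, the basal factor p63, stood at 3.96, 5.50 and 3.66 in the tumors and had 14 reads in all cultures. Tumor replicate 2 was the highest in all 3 basal markers, as in Csn2. The integrin gene Itga6 was not called, with a difference of 1.40, and was called without tumor replicate 1, at 1.55. It was also called under median-of-ratios (1.56), quantile (1.52) and cyclic loess (1.71) scaling. In a fit of all 18 samples and in a fit with replicate number as a block it was called at 1.40. The list sum was 917, 1517 and 1283 CPM in the tumors and 335, 458 and 417 in the cultures, where the linker gene Dst, not called, gave 53.4% of it.

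The mesenchymal list ran the other way, with 11 of 16 genes in the table called lower, 1 higher and a median difference of -2.98, against 14.2% of all genes called lower. The sum was 954, 976 and 540 CPM in the tumors and 6589, 7227 and 7035 in the cultures, 8.44-fold lower in the tumors. Vim gave 65.6% of the sum in the cultures, and its difference was -4.69 (SE 0.25, adjusted p of treat 7.1e-06). Lgals1, which encodes galectin 1, differed by -3.07, the receptor gene Axl by -2.98 and the hyaluronan receptor gene Cd44 by -1.70. The factor genes Zeb1 (-3.78), Zeb2 (-3.72), Twist1 (-5.36) and Snai2 (-2.80), chosen after their values were seen, were also called lower in tumors. Fn1, the fibronectin gene, was the exception and was also chosen after its values were seen. It stood at 8.41, 7.98 and 5.94 in the tumors and had 4 reads in all cultures. Against the tumors the line was thus higher in listed vimentin RNA and lower in listed fibronectin RNA. Some widely used genes were listed with few or no reads in the cultures for reasons not tested, which limits the value of Fn1.

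The immune lists began with 18 pan-leukocyte genes, all in the table, of which 13 were called higher in tumors (8 under cyclic loess), 1 lower and 4 neither. Their median difference was 5.25, or 4.57 with the floor. The sum was 587, 551 and 606 CPM in the tumors and 84.8, 89.6 and 89.7 in the cultures. Lcp1, the actin bundling protein L-plastin, gave 49.0% of the tumor sum and differed by 6.53. Ikzf1, a factor of lymphoid development, stood at 5.58, 5.21 and 6.56 in the tumors and had 1 read in the cultures, a ratio of 3222 with a counting interval of 578 to 127306. Ptprc differed by 8.60 (SE 0.68, adjusted p of treat 3.5e-05), with a counting ratio of 508 and an interval of 140 to 4198. The cultures were not free of the list. The tetraspanin gene Cd37, singled out after its values were seen, stood at 4.93, 4.89 and 5.02 in the cultures and at 2.09, 1.93 and 1.07 in the tumors, and gave 35.1% of the culture sum.

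Of 25 macrophage and monocyte genes, all in the table, 24 were called higher (21 under quantile and 18 under cyclic loess normalization), with a median difference of 8.16, or 6.43 with the floor. The sum was 1397, 1586 and 945 CPM in the tumors and 21, 36.9 and 30.5 in the cultures, a 44.5-fold difference of means. Csf1r, the receptor for CSF1, stood at 5.96, 6.00 and 5.76 in the tumors and had 1 read in the cultures, a ratio of 3271 with an interval of 587 to 129218. Adgre1, the antigen F4/80, stood at 3.92, 4.10 and 3.87 and had 3 culture reads, a ratio of 283 with an interval of 96.5 to 1374. Both macrophage receptors were thus nearly equal in the tumors. Ctss, the lysosomal protease cathepsin S, stood at 7.20, 7.14 and 6.96 and had 1 culture read, a ratio of 7474 with an interval of 1341 to 295249. Mpeg1, a pore-forming protein of phagocytes, differed by 8.81. Cd14 varied more, at 7.90, 8.71 and 6.98, and Lyz2, the lysozyme of myeloid cells, stood at 8.01, 8.06 and 6.86, both lowest in tumor replicate 3. Cd68 was the member not called, at 1.14, and gave 35.0% of the culture sum.

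The letters GAGGAA, the core bound by the myeloid factor PU.1, were searched on both strands. 13 of 20 promoters of 18 macrophage genes (65.0%) and 9 of 18 promoters of 14 pan-leukocyte genes (50%) held them, against 9289 of all 32851 (28.3%). The promoter of Ctss (chr3:95526536-95526835, + strand) is shown because it held 2 matches, in capitals, of which the second reads on the other strand.
Ctss: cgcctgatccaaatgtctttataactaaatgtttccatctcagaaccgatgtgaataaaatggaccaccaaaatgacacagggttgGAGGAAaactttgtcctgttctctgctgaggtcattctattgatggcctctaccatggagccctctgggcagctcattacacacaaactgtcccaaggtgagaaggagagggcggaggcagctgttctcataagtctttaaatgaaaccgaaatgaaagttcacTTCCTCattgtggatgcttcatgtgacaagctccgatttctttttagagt

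MHC class II genes present peptides to helper T cells. 6 of 8 genes in the table were called higher (4 under quantile and 5 under cyclic loess normalization), with a median difference of 6.87 and sums of 817, 976 and 482 CPM in the tumors and 38.0, 43.5 and 46.2 in the cultures. Cd74, the invariant chain, stood at 8.87, 9.10 and 8.07 in the tumors and at -0.72, -0.83 and -0.30 in the cultures, and gave 56.6% of the tumor sum. H2-Ab1 differed by 9.56, H2-Aa by 9.20 and H2-Eb1 by 7.88, on 9, 10 and 13 culture reads. These 4 genes were lowest in tumor replicate 3. H2-DMa and H2-DMb1, chosen after their values were seen, were not called, and H2-DMb1 gave 53.5% of the culture sum. The dendritic cell list had 3 of 11 genes in the table. Itgax, the integrin CD11c, was called higher at 5.77 (not under cyclic loess, at 2.11), and Irf8 was not called, at 0.73. Zbtb46 was not called, at -1.13, but was called lower under quantile (-2.98) and cyclic loess (-1.84) normalization.

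Granulocyte and lymphocyte lists were thinly covered, as many of their members were missing from the table. Of the neutrophil list, 9 of 16 genes were present and 3 were called higher, beside 19.8% of all genes. Under quantile normalization 1 was called higher and 2 lower. The neutrophil sum was 33.4, 46.0 and 8.95 CPM in the tumors and 7.83, 12.1 and 11.8 in the cultures. The groups thus overlapped through tumor replicate 3. S100a8, a calcium-binding protein of neutrophils, stood at 3.48, 4.55 and 1.59 in the tumors and at 2.11, 2.44 and 2.52 in the cultures, and was not called. Its partner S100a9 stood at 2.17, 2.17 and -2.91 in the tumors, had no read in the cultures and was called higher, at least 18.1-fold. That call was lost without tumor replicate 1 (log2 difference 4.80), without culture replicate 2 (5.56), under quantile (2.15) and cyclic loess (3.52) normalization, with a pseudocount of 1 CPM (1.68) and with voom weights (5.66). Csf3r, the receptor for G-CSF, had no culture read and was at least 31.5-fold higher in tumors. The mast cell and basophil list had 1 of 7 genes in the table, Tpsb2, which was not called but was without tumor replicate 3, at 3.83.

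Of the T cell list, 7 of 20 genes were in the table and 3 were called higher, with 0 under quantile normalization and with a pseudocount of 1 CPM. None was called lower, but 2 were under quantile and under cyclic loess normalization, among them Lck (-3.34 and -3.06). Cd3e, a chain of the T cell receptor complex, stood at -0.62, -0.87 and -1.14 in the tumors and had no read in the cultures, at least 3.13-fold higher. Cd3g was at least 5.65-fold higher. Cd8a, the coreceptor of cytotoxic T cells, had 2 culture reads and a ratio of 26.6 with an interval of 7.02 to 225, and its difference of 4.40 became -0.01 under quantile normalization and lost its call under cyclic loess (2.22) and with a pseudocount of 1 CPM (0.94). The levels of Cd3e, Cd3g and Cd8a in the tumors lay between -1.14 and 0.29 on the log2 scale. The list sum was higher in the cultures, at 29.2, 31.1 and 31.0 against 14.4, 19.8 and 9.17 CPM. Tcf7, a factor of the WNT pathway, gave 82.9% of the culture sum and was not called, at -1.80, but was called lower without tumor replicate 2, at -2.18, and in a fit of all 18 samples, at -1.80. Of the NK and cytotoxic list, 5 of 12 genes were in the table and 4 were called higher, with 0 under quantile normalization and 1 with a pseudocount of 1 CPM. Gzmb, which encodes granzyme B, was at least 14.7-fold higher, and the sum was 3.39, 3.84 and 4.21 CPM in the tumors. The B and plasma cell list had 3 of 13 genes in the table. The immunoglobulin genes Igkc and Ighm had no culture read and were at least 61.4-fold and 30.0-fold higher in tumors. Igkc stood at 3.14, 4.33 and 0.92 in the tumors, lowest in replicate 3, and its bound was 31.9-fold without tumor replicate 2, whereas Ighm stood at 2.43, 2.01 and 2.50. Pax5, the third member and a factor of B cells, ran the other way, at 6.11, 6.13 and 5.94 in the cultures against 2 reads in all tumors together, a ratio of 1913 with an interval of 529 to 15806.

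Chemokine and colony-stimulating factor genes did not move as a block. Of 27 in the table, 15 were called higher and 5 lower, beside 19.8% and 14.2% of all genes. Under quantile normalization 7 were called higher and 10 lower. The sums overlapped, at 316, 418 and 247 CPM in the tumors and 346, 359 and 374 in the cultures. Csf1, the growth factor of macrophages, stood at 5.53, 5.55 and 5.53 in the tumors and at 7.44, 7.15 and 7.35 in the cultures, and was called lower at -1.78. Ccl2, which attracts monocytes, stood at 1.45, 2.51 and 0.65 in the tumors and at 6.12, 6.56 and 6.62 in the cultures, and was called lower at -4.89. Csf1, a ligand of Csf1r, and Ccl2 were thus lower in the tumors than in the line, while Csf1r was higher. This did not hold for all attractants of the list. Ccl6, Ccl9 and Ccl12, chosen after their values were seen, had no culture read. They were at least 107-fold, 72.1-fold and 8.15-fold higher in tumors. Cx3cl1, a membrane-bound chemokine, was called higher at 2.55 and Cxcl16 at 5.45. Cxcl12 and Cxcl14, chosen after their values were seen, had no culture read and were at least 152-fold and 144-fold higher in tumors.

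Class I presentation and interferon genes were closer between the groups. Of 11 class I genes, 3 were called higher and 1 lower (0 lower without 1 of the libraries), with a median difference of 0.52. H2-K1 stood at 9.88, 9.35 and 10.06 in the tumors and at 6.65, 6.98 and 6.97 in the cultures, whereas H2-D1 (0.53), B2m (-0.52) and Tapbp (0.79) were not called. The strains carry different H2 haplotypes and the reads were aligned to 1 reference genome, so the values of H2 genes cannot be told apart from that difference. Of 19 interferon response genes, 2 were called higher (1 to 3 without 1 library) and none lower (0 to 1 without 1 library), beside 19.8% and 14.2% of all genes, and their median was 0.59. Irf7, the factor that amplifies interferon, was called higher at 2.78, and Bst2, which tethers viruses, was not called, at -1.29. The interferon sums overlapped, at 836, 678 and 1116 against 529, 734 and 638 CPM. Of 9 complement genes, 5 were called higher and 2 lower. C4b stood at 8.57, 7.47 and 8.59 in the tumors and had 2 culture reads, a ratio of 8510 with an interval of 2355 to 70276. C3 was higher at 4.16. The genes of the starting proteases, C1s1 and C1ra, were lower at -3.45 and -2.78.

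Of 18 fibroblast genes, 17 were in the table and 16 were called higher (12 under quantile and 13 under cyclic loess normalization), with a median difference of 7.17, or 6.38 with the floor. The sum was 2688, 4078 and 1426 CPM in the tumors and 72.8, 94.9 and 82.3 in the cultures. Col1a1, the chain of type I collagen, stood at 9.81, 10.28 and 8.78 in the tumors and at 4.46, 4.50 and 4.33 in the cultures, a difference of 5.19 (SE 0.34, adjusted p of treat 1.8e-05). Its partner chain Col1a2 stood at 9.23, 9.89 and 8.41 in the tumors and at 0.82, -0.40 and -1.59 in the cultures. All tumors thus lay above all cultures in both chains, and the difference for Col1a2 was 9.57. Col3a1 differed by 4.87, and Postn, which encodes the matrix protein periostin, by 12.23 on 4 culture reads. Pdgfra, the receptor that marks fibroblasts, was the member not called. It stood at 4.22, 4.87 and 4.50 in the tumors and at 4.71, 5.57 and 5.17 in the cultures, so this defining marker did not separate tumor from culture, and it gave 43.8% of the culture sum.

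Matrix genes were called in both directions. Of 20 interstitial matrix genes in the table, 11 were called higher and 3 lower, and the sums overlapped, at 2011, 3007 and 1257 against 1549, 1665 and 1694 CPM. Eln, the elastin gene, stood at 7.75, 7.37 and 7.17 in the tumors and had no culture read, at least 1048-fold higher. Col5a1 ran the other way, at 6.42, 7.13 and 5.59 against 9.19, 9.28 and 9.34, and was called lower at -2.89. Sparc (0.57) and Col6a1 (-1.08) were not called. Of 13 basement membrane genes, 5 were called higher and 3 lower, beside 19.8% and 14.2% of all genes, with a median difference of -0.42. The laminin chain gene Lamc1 (-2.26), the linker gene Nid1 (-3.18) and the perlecan gene Hspg2 (-2.80) were the 3 called lower. The sum was 1555, 1704 and 1144 CPM in the tumors and 2494, 2958 and 3128 in the cultures, 1.95-fold lower in the tumors.

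Of 18 endothelial genes in the table, 13 were called higher (11 under quantile and cyclic loess normalization) and 1 lower, with a median difference of 6.35, or 5.49 with the floor. Pecam1, the junction protein CD31, stood at 5.37, 5.63 and 4.81 in the tumors and at -1.65, -1.26 and -0.66 in the cultures. Cdh5, the cadherin of endothelium, stood at 5.15, 5.44 and 4.79 in the tumors and had 22 culture reads. Plvap, a protein of capillary pores, differed by 8.71 on 4 culture reads. All 3 were lowest in tumor replicate 3. Eng, a coreceptor for TGF-beta, stood at 7.64, 7.78 and 7.65 in the cultures and at 5.06, 5.53 and 4.79 in the tumors, and gave 82.9% of the culture sum. As a result the endothelial sums lay close, at 367, 443 and 267 against 239, 260 and 249 CPM. Of 13 pericyte and smooth muscle genes, 7 were called higher and none lower, but 3 were lower under quantile normalization. Rgs5, a marker of pericytes, stood at 5.70, 5.86 and 5.57 in the tumors and had 7 culture reads, and Notch3 differed by 9.77. Acta2, the smooth muscle actin, was not called, at -0.07. None of the 4 lymphatic endothelial genes was in the table.

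Some genes of fat, nerve sheath, skeletal muscle and red blood cells were also missing from the table. Of the adipocyte list, 5 of 15 genes were in the table and 3 were called higher, with 1 under quantile and cyclic loess normalization. Lpl, the lipase that frees fatty acids from lipoproteins, had 3 culture reads and a ratio of 248 with an interval of 84.5 to 1204. Of the Schwann cell list, 3 of 8 genes were in the table and all 3 were called higher. Sox10 stood at 9.22, 9.29 and 9.19 in the tumors and had 4 culture reads, and it gave 86.4% of the tumor sum. Sox10 is a factor of nerve sheath cells that mammary epithelium also uses, and which cells carried it here was not tested. Of the skeletal muscle list, 9 of 15 genes were in the table and 6 were called higher, but under quantile normalization 2 were higher and 3 lower. Acta1, the skeletal actin, stood at 2.96, 1.42 and 1.11 in the tumors, highest in replicate 1, and its difference of 3.99 became -0.09 under quantile normalization and lost its call under cyclic loess (0.11) and with a pseudocount of 1 CPM (1.94). Of the erythroid list, 5 of 7 genes were in the table and all 5 were called higher (3 under quantile and cyclic loess normalization and 1 with voom weights). Hba-a1, an alpha globin gene, stood at 9.80, 8.51 and 4.71 in the tumors and had 34 culture reads, and its call was lost with voom weights, at 8.31. Near-identical globin copies can share reads, so single globin values are uncertain.

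**Figure D3:**
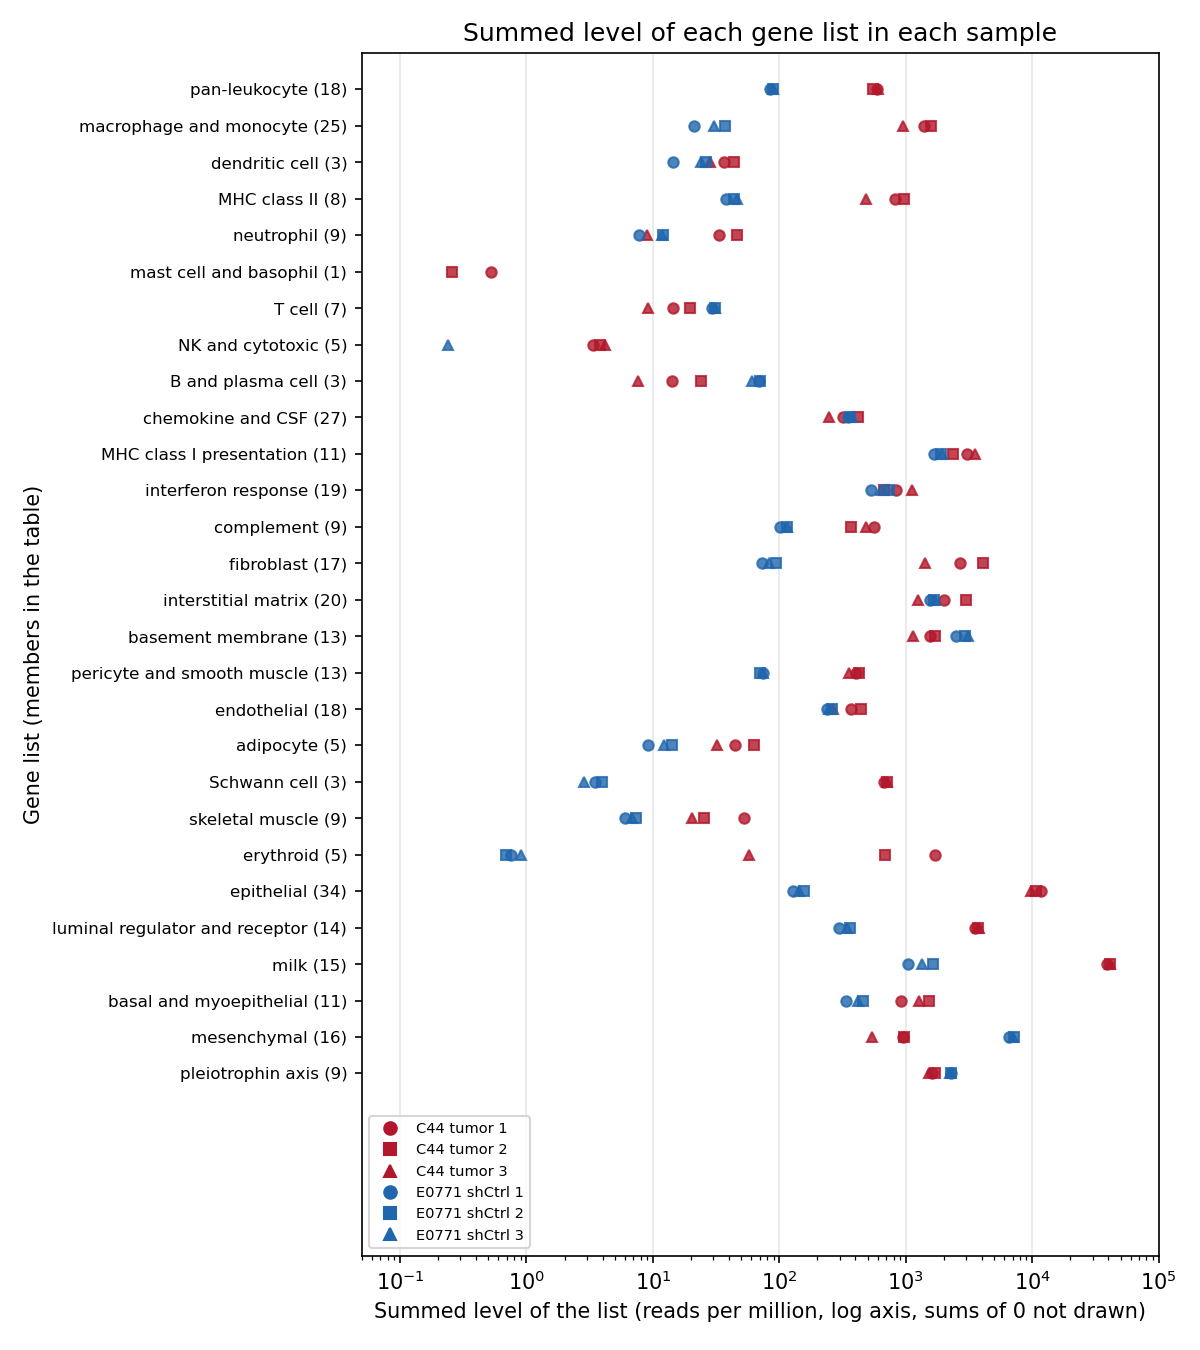
Summed CPM of each immune, stromal and lineage list in each C44 tumor (red) and each E0771 shCtrl culture (blue) on a log axis, with the number of members in the table in parentheses. The epithelial sum lies between 9754 and 11731 in tumors and between 129 and 157 in cultures, and the mesenchymal sum lies on the other side.

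List sums were also compared between the tumors. The erythroid sum was 1691, 681 and 57.2 CPM, a 29.6-fold range, against sums under 1 in each culture. The neutrophil sum had a 5.13-fold range between tumors, the B and plasma cell sum a 3.16-fold range, the fibroblast sum a 2.86-fold range and the MHC class II sum a 2.03-fold range. In contrast, the milk sum ranged 1.05-fold, the luminal sum 1.07-fold, the pan-leukocyte sum 1.10-fold and the epithelial sum 1.20-fold. Tumor replicate 3 was the lowest tumor in the fibroblast, macrophage, MHC class II, endothelial and neutrophil sums and the highest in the pan-leukocyte, NK and cytotoxic, class I, interferon and hypoxia sums. With 3 tumors, these orders are descriptions. How much blood and stroma each tumor piece held was not measured, and its part in these values was not tested.

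**Figure D4:**
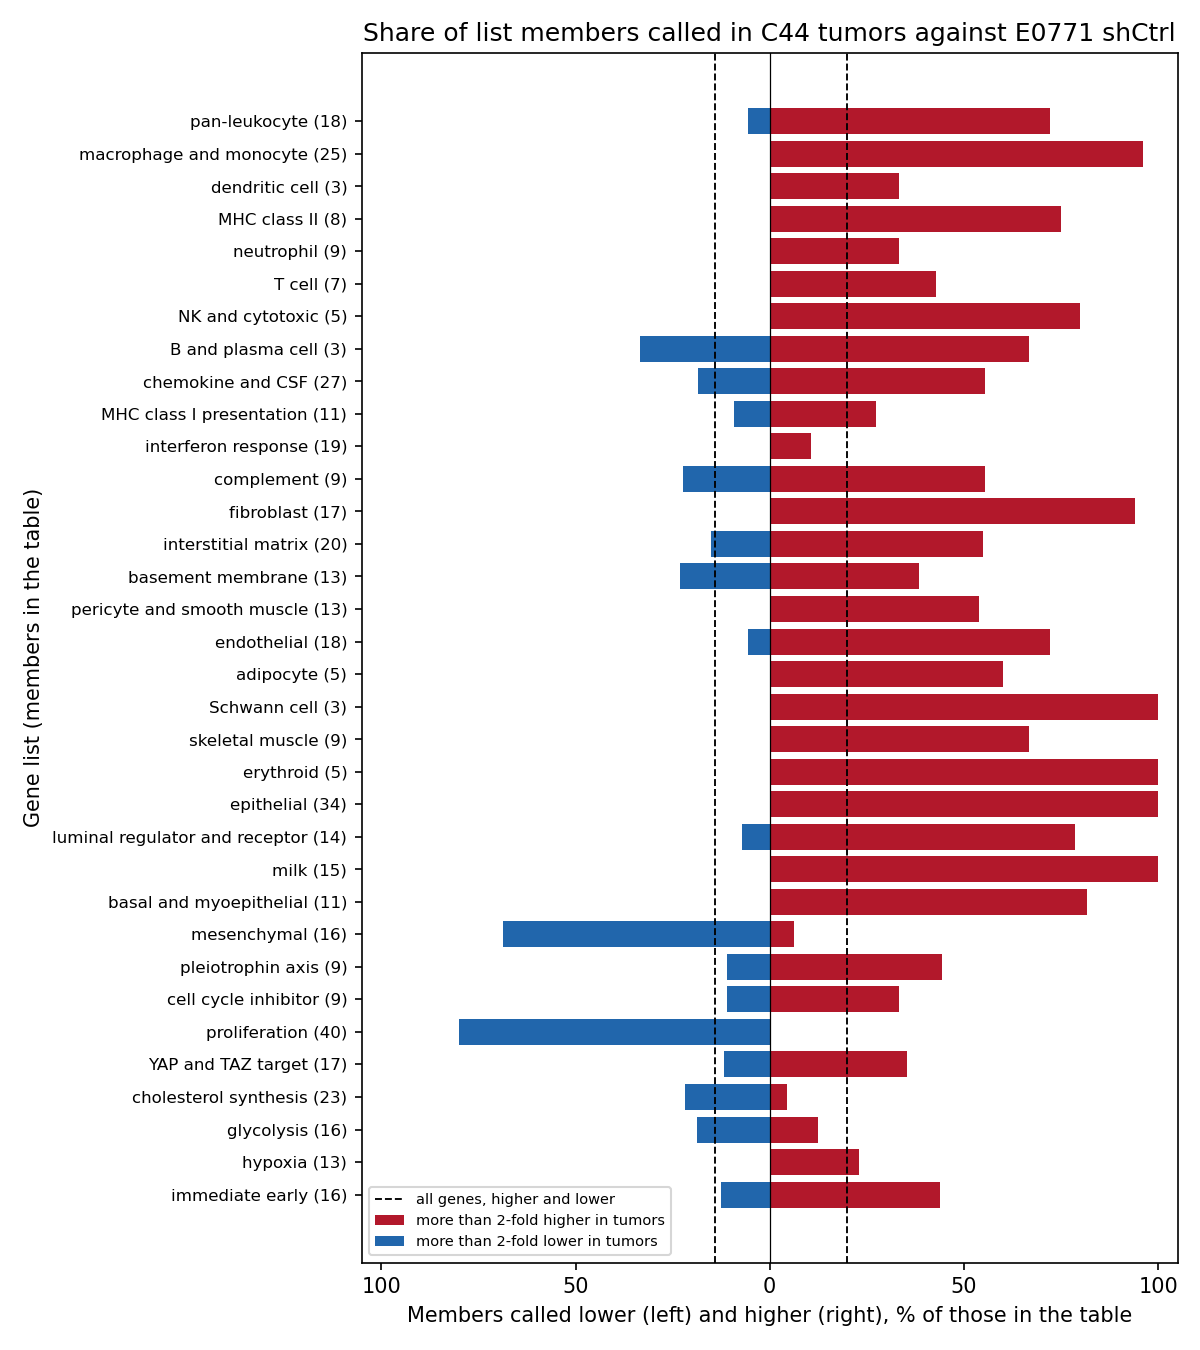
Share of each list's members in the table called more than 2-fold higher (red, right) or lower (blue, left) in 3 C44 tumors than in 3 E0771 shCtrl cultures, for lists with at least 3 members in the table. Dashed lines mark the shares among all 12091 genes, 19.8% higher and 14.2% lower.

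Growth genes were compared because the tumors and the line both consist in part of dividing cells. Of 40 proliferation genes, all in the table, 32 were called lower in tumors (29 under cyclic loess) and none higher, with a median difference of -1.85. The sum was 1924, 2412 and 2223 CPM in the tumors and 7444, 6949 and 6928 in the cultures, 3.25-fold lower in the tumors. Top2a, which untangles DNA, stood at 7.17, 7.47 and 7.09 in the tumors and at 9.03, 9.18 and 8.96 in the cultures. The helicase gene Mcm3 differed by -2.59 and Mcm7 by -2.02. Mki67, chosen after its values were seen, was an exception at 0.32 and was not called. Of 9 cell cycle inhibitor genes, 3 were called higher and 1 lower, beside 19.8% and 14.2% of all genes. Rb1, the retinoblastoma gene, was called higher at 2.31, and Trp53 was not called, at -0.09, or 0.21 under cyclic loess. Cdkn2a and Cdkn2b, chosen after their values were seen, had no read in any of the 3 cultures and were at least 53.2-fold and 45.3-fold higher in tumors. Mtap, which is their neighbor in the genome and was also chosen after its values were seen, had 3650, 3580 and 3004 culture reads. It was called lower in tumors, at -1.98, and the cause of the values of these 3 genes was not tested.

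The ligands of the pleiotrophin axis, the subject of the study, were not called in either direction under the reported scaling, but their differences depended on the scaling. Ptn stood at 2.80, 2.73 and 3.42 in the tumors and at 2.90, 2.18 and 2.28 in the cultures, so the groups overlapped. Its difference of 0.53 was not called, and was -1.19 under quantile and -0.74 under cyclic loess normalization. Mdk, the related ligand midkine, was not called either, at 0.06, and was -2.66 and -2.46 under these scalings. Of 9 genes of ligands and receptors in the table, 4 were called higher and 1 lower, beside 19.8% and 14.2% of all genes. Sdc4, a heparan sulfate receptor, was called higher at 1.56, but not without tumor replicate 1 (1.47) or 2 (1.54) or without culture replicate 1 (1.40) or 3 (1.57). Lrp1, an uptake receptor, was called lower at -2.19, but not without tumor replicate 3 (-1.70) or without culture replicate 2 (-2.13) or 3 (-1.98), and not under median-of-ratios (-2.03), quantile (-2.08) or cyclic loess (-1.88) scaling or with limma without trend and not robust (-2.19). The receptor phosphatase gene Ptprz1, chosen after its values were seen, was called higher at 3.47.

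The counts for the lists that follow stand beside 19.8% of all genes called higher and 14.2% called lower, and no difference from these shares was tested. The YAP and TAZ target list also held the factor genes Yap1, Wwtr1, Tead1 and Tead4. Of its 17 genes, 6 were called higher and 2 lower (1 to 4 lower without 1 library). Thbs1, which encodes thrombospondin 1, was higher at 5.61. Of 16 glycolysis genes, 2 were higher (0 to 2 without 1 library) and 3 lower, and Ldha (-0.24), Pkm (-0.42) and Aldoa (0.08) were not called. Of 13 hypoxia genes, 3 were higher and none lower (1 lower under quantile and cyclic loess normalization, and 0 to 1 without 1 library). Car12, a carbonic anhydrase, was higher at 3.71 and gave 33.5% of the tumor sum. Without 1 library, Egln3 stayed between 1.10 and 1.36, Ndrg1 between 0.58 and 0.90 and Egln1 between -1.40 and -1.18. Of 16 immediate early genes, 7 were higher and 2 lower, and Junb (0.54) and Jund (0.28) were not called, of which Jund shared 52.6% of its exon length with another gene and is uncertain. The sums for immediate early genes overlapped, at 1585, 2013 and 1126 against 904, 1133 and 1112 CPM.

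The largest differences were mostly genes with no read on one side. In tumors, Igfbp5, which binds insulin-like growth factors, stood at 13.32, 13.74 and 13.26 and had no culture read, at least 67188-fold higher. The secreted proteins Wfdc18 and Chil1 were at least 10637-fold and 9634-fold higher, with a bound of 4684-fold for Chil1 without tumor replicate 2, and the milk gene Lalba at least 5430-fold. Clic6 (4262-fold), Emid1 (3346-fold), Pmepa1 (3206-fold) and Irx1 (3157-fold) were also higher by at least those factors, as Ltf and Ehf were. The pseudogene Gm15459 had a bound of 4872-fold, but shared 95.8% of its exon length with another gene and is uncertain. Among the genes higher in cultures, Magea13, a relative of antigens known from germ cells, was at least 1046-fold lower in tumors, Tm9sf5 at least 1033-fold, Xlr3c at least 816-fold and Serpinb9b at least 332-fold. Hmga2, a chromatin protein of embryonic cells, stood at 8.53, 8.50 and 8.42 in the cultures and at -3.68, -1.81 and -2.91 in the tumors. Pnma5 differed by -11.64. Tex19.1, Tex11 and Gm10451 each had 1 read in all tumors together, and the ratios were 4570 (820 to 180531), 2886 (518 to 114028) and 2566 (460 to 101377).

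A value of 0 reads needs care in this table. 732 genes had no read in the 3 shCtrl cultures, of which 516 were called higher in tumors, and 233 had none in the 3 C44 tumors, of which 38 were called lower. 185 had none in all 6. Some genes that nearly all cells use were listed at 0. App was listed at 0 in all 3 cultures, as were Hgs, Tmed4 and Trim44, chosen after their values were seen. Qser1 was listed at 0 in all 3 tumors. Hgs shared 97.2% of its exon length with another gene. Over 10% of exon length was shared in 31.8% of genes at 0 in the cultures, 73.4% of those at 0 in the tumors and 89.2% of those at 0 in all 6, against 14.4% of all genes, and in 11.6% of the 516 genes at 0 in the cultures that were called higher. Why these genes were listed at 0 was not tested, and the bounds against 0 hold only where a 0 is a true count. Other genes named with over 10% shared were Tapbp (29%), Spp1 (18.8%), C1s1 (18.4%), Cxcl16 (18.3%), Pkm (15.3%), Csf1r (15.1%), Rb1 (14.9%), Xist (12.6%), Mcm7 (12.6%) and H2-DMa (10.4%). Pseudogenes stood apart as a class, with 80 of 142 called lower in tumors (56.3%) and a median difference of -2.46, against 14% and -0.06 among protein-coding genes.

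The contrast was repeated in samples that it did not use, 3 MMTV-PyMT tumors treated with the anti-pleiotrophin antibody 3B10 and 3 E0771 cultures with an shRNA against Ptn (shPTN). There 2354 genes (19.5%) were called higher in tumors and 1525 (12.6%) lower, with a median of 0.05 over all genes. Of the genes called higher in the control arms, 2098 were also called higher there, 87.7% of the first list and 89.1% of the second. Of those called lower, 1354 were shared, 78.6% of the first list and 88.8% of the second, and 0 genes were called in opposite directions. All 34 epithelial genes, 24 of 25 macrophage genes and 14 of 15 milk genes were called higher there, and 28 of 40 proliferation genes were called lower. Ptn was called higher there, at 3.44, in cultures whose Ptn the shRNA targets. Pdgfra was called lower, at -2.55. Whether the contrasts differ for these genes was not tested.

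E0771-LG is a line derived from a lung metastasis of E0771. Against its 3 shCtrl cultures, the same 3 C44 tumors had 2868 genes (23.7%) called higher and 1627 (13.5%) lower, with a median of 0.11. This comparison shares the tumors with the main one, so values are given side by side only. The epithelial median was 9.92 against E0771-LG and 9.91 against E0771, the milk median 8.38 and 8.83, and the proliferation median -1.98 and -1.85. The pan-leukocyte median was 2.19 against E0771-LG and 5.25 against E0771, and the chemokine median 0.09 and 2.68. Lcp1 differed by 1.93 against E0771-LG and by 6.53 against E0771, and H2-K1 by 13.51 and 2.90. The epithelial, milk and proliferation medians thus changed less between the lines than the pan-leukocyte and chemokine medians did.

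**Figure D5:**
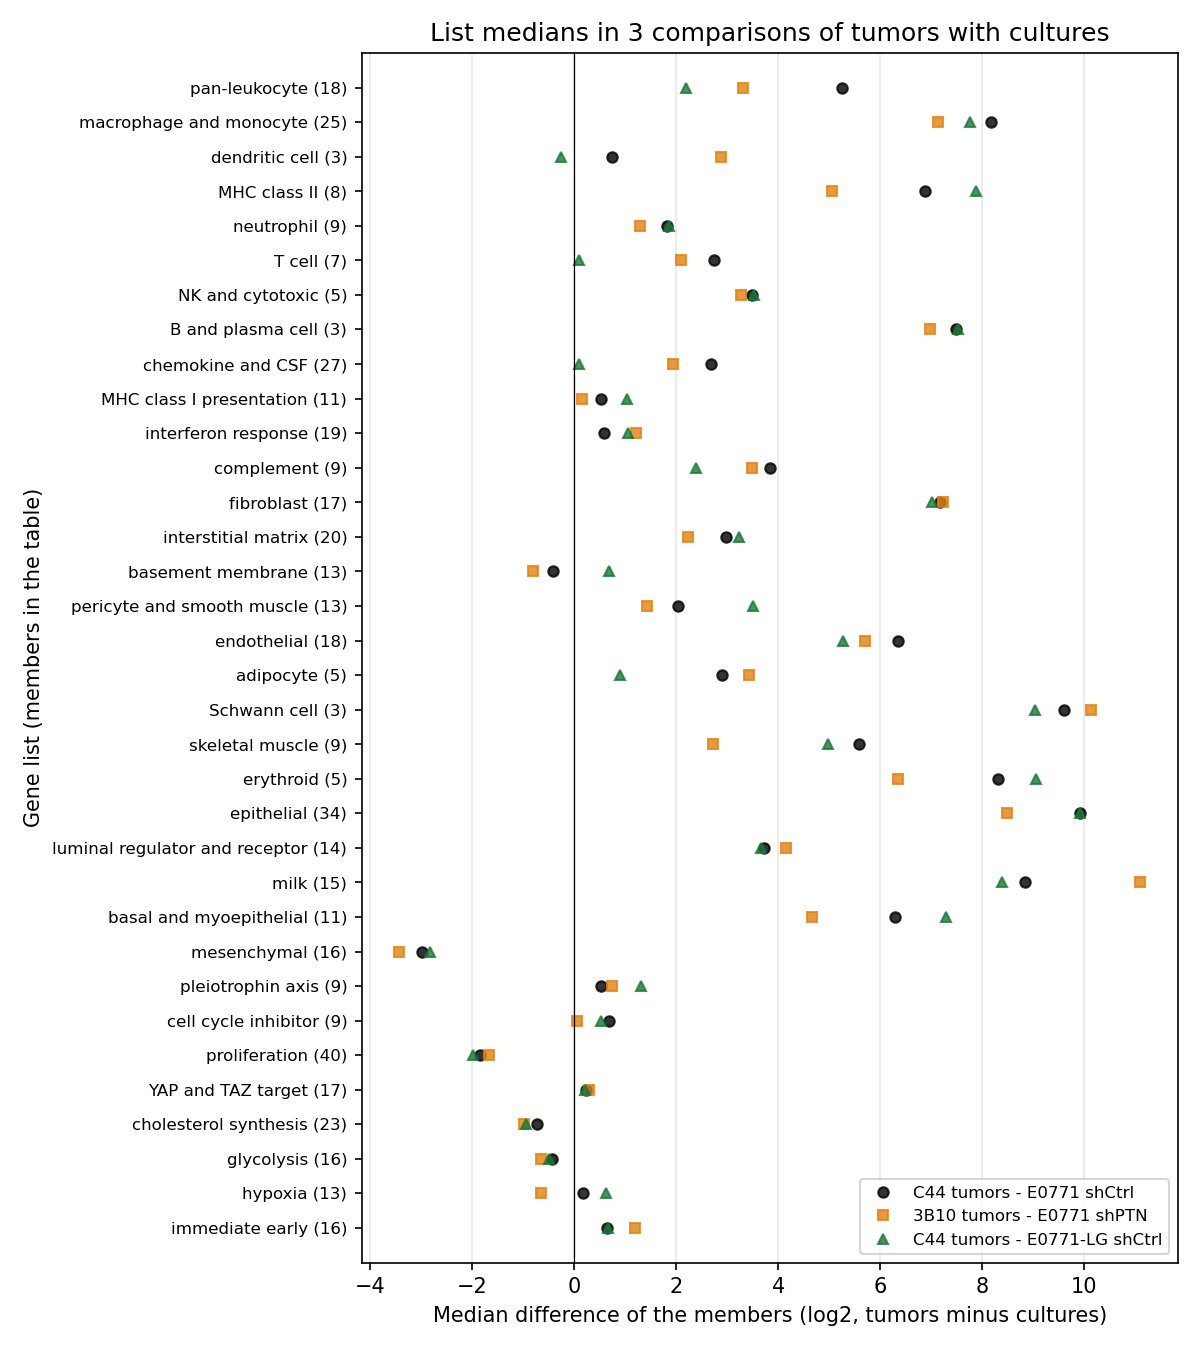
Median log2 difference of the members of each list, tumors minus cultures, for C44 tumors against E0771 shCtrl (circles), 3B10 tumors against E0771 shPTN (squares) and C44 tumors against E0771-LG shCtrl (triangles). Mesenchymal and proliferation lists lie left of 0 and epithelial, milk and macrophage lists right of 0 in all 3 comparisons, of which circles and triangles share the tumors.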

How the data were processed

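RNA was extracted by the authors from tumors and cells, sequenced on Illumina instruments, aligned with HISAT2 to mm10/GRCm38 and counted on genes with featureCounts; edgeR and limma are named in the authors' processing notes. The authors deposited 1 table of log2 values, and the step that made them and the gene filter are not stated. In 18 samples 100% of the values were whole reads with an offset of 0.5 (within 0.01 reads for values under 1000 reads and within 0.1 for all), and depth was recovered from them. The 6 4T1 tumors were on another scale and were not used, and 12 samples served for the comparisons of other arms and for an alternative fit of all 18 samples.

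Fits used limma 3.58.1 in R 4.3.3 (lmFit, then eBayes and treat with a log2 threshold of 1, trend and robust) over 12091 genes with Benjamini-Hochberg adjustment and no further filter. A count-based test planned for read counts was not run. The table was deposited as log2 values, and the reads recovered from them served for voom weights in an alternative fit. Lists were described by counts, medians and sums. The members and the 37 lists were chosen with earlier results of these data known. Named genes were the 12 largest calls each way without overlap and with a mean of at least 5, up to 4 members per list with the highest group mean, and fixed markers. Older gene symbols in the lists were matched as aliases. Folds against 0 used a floor of 3 reads per library, and counting intervals were exact Clopper-Pearson at 95%. Biotypes and shared exon length came from GENCODE M21, promoters from RefSeq GRCm38.p6, and Python 3.11.15 made the tables and plots. The fit was tested on simulated data with known changes: there the adjusted p let through more false calls than its threshold states, and the 2-fold test did not, so counts at the adjusted p alone may hold more false calls than stated.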

Additional observations from a re-analysis of the deposited data

Results flagged for a closer look

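Laptm5, a lysosomal protein of leukocytes, lay on opposite sides of the C44 tumors in the shCtrl cultures of the parental line and of its metastatic derivative. It stood at 5.84, 5.75 and 5.50 in the C44 tumors, at 2.61, 2.68 and 2.49 in the E0771 shCtrl cultures and at 6.46, 6.37 and 6.40 in the E0771-LG shCtrl cultures. All tumors were above all E0771 cultures, with a difference of 3.10 that was called higher, and below all E0771-LG cultures, with a difference of -0.71 that was not called. The E0771-LG shPTN cultures stood at 5.43, 5.44 and 5.55, which overlapped the C44 tumors, so the other arm of that line did not lie above them. The difference between these contrasts was not tested.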

How the results depend on the processing

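The counts over all genes kept within 1.5 times of the reported ones in 77 of 78 alternatives, which were filters, scalings, pseudocounts, models, fits without a library and, chosen after seeing the data, protein-coding genes only and genes with reads in both groups. The exception was the 1722 genes called lower, of which a log2 threshold of 2 left 640; a stricter threshold calls fewer genes by construction. Without 1 library at a time, the genes higher at the adjusted p ranged from 3931 to 4246, those lower from 4116 to 4598, those more than 2-fold higher from 2261 to 2404 and those more than 2-fold lower from 1502 to 1737.

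Of 2875 alternatives for the differences of 170 named genes, 2782 were counted as the same, 57 lost a call, 26 gained one and 10 changed sign with a call in either fit or by more than 1 SE. Smaller sign changes of genes not called were counted as the same, such as Trp53 (0.05 without tumor replicate 3), Mdk (-0.28 without tumor replicate 2) and Acta2 (0.12 without culture replicate 1). Under quantile normalization Cd8a became -0.01, Klrd1 -0.78, Cd36 -0.79, Acta1 -0.09, Ptn -1.19 and Mdk -2.66. Under cyclic loess Cd36 became -1.32, Trp53 0.21, Ptn -0.74 and Mdk -2.46. The cause was not tested. Counts of list members called higher stayed within 1.5 times in 669 of 720 alternatives, and those called lower in 668 of 720.

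Replicate numbers did not pair the samples: the deviations of same-numbered tumors and cultures from their group means correlated at 0.031, 0.048 and -0.048 across genes, and not every sample correlated best with its own number. With a replicate block, 2381 genes were called more than 2-fold higher and 1675 lower, and 4188 were higher and 4462 lower at the adjusted p. Itga6 (1.40) was called higher and Actn3 (-2.53) lower with the replicate block.

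Strain, oncogene, antibody, vector and experiment differ together with tissue against culture, and 3 samples a group limit the spread estimate. Genes with few reads are imprecise, and list members missing from the table could not be counted.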

Other observations

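Cd81, a tetraspanin of most cell types that was chosen after its values were seen, had 13321, 10455 and 10006 reads in the C44 tumors and 2, 0 and 0 in the E0771 shCtrl cultures. Gapdh, also chosen after its values were seen, stood at 9.25, 8.92 and 9.63 in the tumors and at 4.28, 4.00 and 7.79 in the cultures, so the cultures differed among themselves. Gapdh has many pseudogene copies that can share its reads, and its value is uncertain.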
